A study of Saccharomyces cerevisiae with 6 samples.

Results

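*YRA1* (YDR381W) and *DBP2* (YNL112W) carry the longest introns among those tested here, and both genes are known to regulate their own expression through them. They are 2 of the 271 intron-containing genes in the tables, chosen by name, and hold 2 of the 272 annotated introns that could be tested. Poly(A) RNA was sequenced from budding yeast of the BY4741 background, 3 libraries from *upf1Δ* cells (*UPF1* replaced by HIS3MX6) and 3 from *prp18Δupf1Δ* cells, which also have *PRP18* replaced by kanMX6. All cells grew in rich medium (YPD) and were collected in mid-log phase. Both strains therefore lack Upf1p, the helicase of nonsense-mediated mRNA decay (NMD), and only the second also lacks Prp18p, which acts in the second catalytic step of splicing. The question was what the loss of Prp18p did to the splicing of these introns. Separate cultures are not stated for the replicates, so the spread behind each p value is that of 3 libraries per strain and may be technical. *PRP18* and *UPF1* have no intron and are not listed, so the deletions cannot be seen in these data.

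Yra1p is an RNA-binding export adaptor that joins the TREX complex through the helicase Sub2p and hands mRNA to the export receptor Mex67p. When Yra1p is abundant, less of its own pre-mRNA is spliced, and the unspliced transcript is exported and degraded in the cytoplasm by a pathway that needs Edc3p rather than the NMD factors. Dbp2p is a DEAD-box RNA helicase that works in mRNP assembly, binds Yra1p and also lowers its own expression through its intron. In both genes a long intron sits inside the coding sequence, far from the start codon, whereas most yeast introns lie near the start codon.

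The intron of *YRA1* lies on chromosome IV, plus strand, at chrIV:1236843-1237608 of the R64 genome, between exon 1 (1236558 to 1236842) and exon 2 (1237609 to 1238004). It is 766 nt long and follows 285 of the 681 coding bases. The intron of *DBP2* lies on chromosome XIV, plus strand, at chrXIV:414912-415913, between exon 1 (413639 to 414911) and exon 2 (415914 to 416281). It is 1002 nt long and follows 1273 of the 1641 coding bases. By length they rank 1 (*DBP2*) and 2 (*YRA1*) among the 272 tested introns, whose median is 165 nt. The median intron follows 24.5 coding bases. Only 2 introns follow more coding sequence than that of *DBP2*, and 18 follow more than that of *YRA1*.

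The sequences around the splice sites are shown because they carry the sites at which alternative junctions could be counted. They come from the R64 reference of RefSeq. The annotated 5′SS, 3′SS and branch sequence listed for each of the 272 tested introns matched it. The first pair gives the last 10 bases of exon 1 and the first 35 bases of the intron, at chrIV:1236833-1236877 for *YRA1* and chrXIV:414902-414946 for *DBP2*. Capitals mark the 6 bases of the 5′SS and the first in-frame stop codon met when the intron is read through, and in *YRA1* these adjoin.
*YRA1* 5′SS: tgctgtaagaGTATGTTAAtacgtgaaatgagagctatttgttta
*DBP2* 5′SS: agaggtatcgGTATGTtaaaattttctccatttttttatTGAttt

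The second pair runs from the branch sequence through the 3′SS to 30 bases of exon 2, at chrIV:1237583-1237638 and chrXIV:415865-415943. Capitals mark the branch sequence, the annotated 3′SS and, in *YRA1*, a TAG ending 22 bases into exon 2 that was seen as an alternative 3′SS.
*YRA1* branch to exon 2: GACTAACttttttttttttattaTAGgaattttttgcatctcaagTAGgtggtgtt
*DBP2* branch to exon 2: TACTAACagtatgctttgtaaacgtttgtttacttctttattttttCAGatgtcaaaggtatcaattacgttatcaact

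Both introns begin with GTATGT, as did 214 of the 272 tested introns. They differ at the branch. *YRA1* has GACTAAC, shared by 11 tested introns, where *DBP2* has TACTAAC, shared by 231. The branch adenosine lies 20 nt before the end of the *YRA1* intron and 43 nt before the end of that of *DBP2*, against a median of 33 nt. Only 42 introns have a shorter distance than *YRA1*, and 207 have a shorter one than *DBP2*. Both 3′SS follow a run rich in U, with 8 (*YRA1*) and 9 (*DBP2*) of the 10 nt before the 3′SS, against a median of 5. The annotated 3′SS of *YRA1* is the first AG after the branch sequence, and in *DBP2* another AG directly adjoins that sequence. Read through, the *YRA1* intron ends the frame at bases 7 to 9 of the intron, after 97 codons in place of 226. In *DBP2* the stop lies at intron bases 30 to 32, after 434 codons in place of 546.

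The depth at all tested introns was 1413318 to 1594460 spliced plus unspliced reads per library in *upf1Δ* and 914005 to 1364737 in *prp18Δupf1Δ*. Replicate 1 of each strain stood apart from replicates 2 and 3. The deviations of the introns' abundances from their strain mean correlated at 0.82 across the 272 introns between the libraries numbered 1, and between -0.82 and -0.72 when a library numbered 1 was set against a library numbered 2 or 3 of the other strain. Deviations from a strain mean cancel out within the strain. Given the value of 0.82, the negative values thus follow in part from the centring and are not separate support. Results below are therefore also given without replicate 1 of both strains, or with the replicate number as a block, where that changes them. The fit without replicate 1 was chosen after the data were seen.

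Splicing of *YRA1* fell without Prp18p, while no change was called for *DBP2*. Splicing efficiency (SE) is the share of annotated junction reads among annotated junction plus unspliced reads, where unspliced reads are the mean of those that cross the unspliced 5′SS and 3′SS. Reads across the unspliced 3′SS can also come from molecules that passed the first catalytic step and not the second. Unspliced reads may therefore hold such molecules beside intact pre-mRNA, and these could not be told apart here. The SE of *YRA1* was 90.0%, 89.5% and 91.8% in *upf1Δ* replicates 1, 2 and 3. It was 84.8%, 80.7% and 81.0% in the *prp18Δupf1Δ* replicates. Each *prp18Δupf1Δ* library lay below each *upf1Δ* library. The highest value was that of replicate 3 in *upf1Δ* and of replicate 1 in *prp18Δupf1Δ*. The 95% Wilson intervals of the closest libraries, 83.0 to 86.5% and 88.2 to 90.7%, did not overlap, although these intervals cover counting error only. The means were 90.4% ± 1.22 (SD, n = 3) and 82.2% ± 2.32 (SD, n = 3). The share of unspliced reads thus went from 9.55% ± 1.22 to 17.8% ± 2.32 (SD, n = 3 each).

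The SE of *DBP2* was 96.7%, 97.9% and 97.5% in the *upf1Δ* replicates and 97.0%, 97.9% and 97.7% in the *prp18Δupf1Δ* replicates. The libraries of the strains overlapped fully. The means were 97.4% ± 0.594 and 97.5% ± 0.460 (SD, n = 3 each), a difference of 0.161 percentage points. Unspliced reads of *DBP2* were few, 30.5 to 49 per library in *upf1Δ* and 15 to 24.5 in *prp18Δupf1Δ*, so its ratio is less precise than that of *YRA1*, which had 168 to 251.

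**Figure D1:**
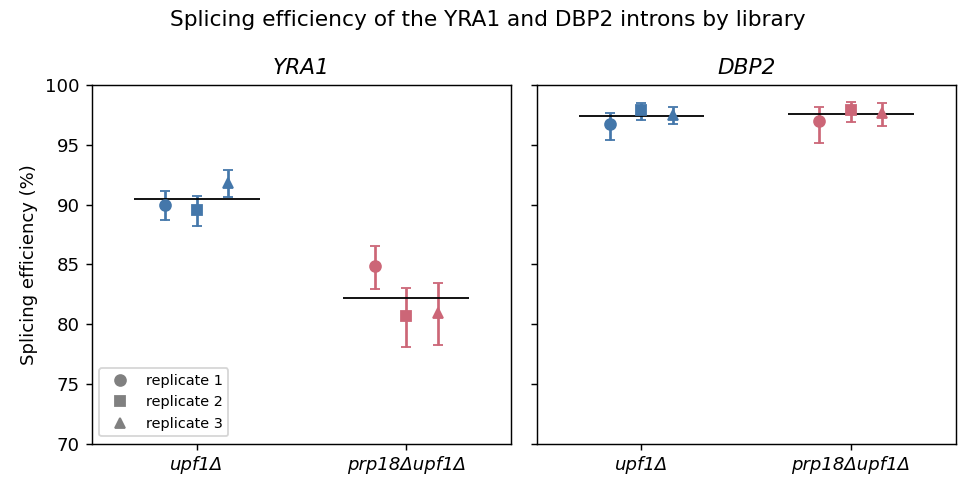
Splicing efficiency in percent (y axis, from 70 to 100) of the *YRA1* and *DBP2* introns in each library (points, shaped by replicate number) with 95% Wilson intervals for counting error, by strain (x axis). Horizontal lines are the means of 3 libraries. The *YRA1* libraries of *prp18Δupf1Δ* lie between 80.7% and 84.8%, all below those of *upf1Δ*, and the *DBP2* libraries lie between 96.7% and 97.9% in both strains.

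The test compared spliced with unspliced reads in one count model over all 272 introns (quasi-likelihood test of edgeR, in which each library has its own term, with Benjamini-Hochberg adjustment over all introns and a threshold of 0.05). The log2 change of the ratio of spliced to unspliced reads was -1.04 ± 0.254 (SE of the estimate) for *YRA1*, with an adjusted p of 0.00564 in this edgeR test. For *DBP2* it was 0.090 ± 0.286, with an adjusted p of 0.769. In all, 81.6% of the introns were called lower and 0 were called higher, so being lower was the usual outcome, which *YRA1* shared. The SE of every *prp18Δupf1Δ* library was below that of every *upf1Δ* library in 82.7% of introns. Without replicate 1 of both strains, the change was -1.22 for *YRA1* and 0.067 for *DBP2*, and neither call changed. The sign for *DBP2* turned, to -0.080 and -0.022, without *upf1Δ* replicate 1 and without *prp18Δupf1Δ* replicate 2.

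Both introns changed less than the median intron. The median change over the 272 introns was -1.92 on the log2 scale (quartiles -2.60 and -1.31). From the least to the most negative change, *DBP2* ranked 7 and *YRA1* ranked 53 of 272. Outside the ribosomal protein genes (RPGs), where the median was -2.16, they ranked 3 and 19 of 168. A test against the median intron, in which 0 stands for the median change, gave 2.01 ± 0.294 for *DBP2* (edgeR, adjusted p = 0.00388). For *YRA1* it gave 0.88 ± 0.254 (edgeR, adjusted p = 0.0403). This test was added after the data were seen, and it called 14.7% of introns higher than the median one and 9.93% lower. The call for *DBP2* was kept when any 1 library was left out (adjusted p from 0.00125 to 0.0313). The call for *YRA1* was lost without *upf1Δ* replicate 1, 2 or 3 and without *prp18Δupf1Δ* replicate 2 or 3, with adjusted p from 0.0962 to 0.150.

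The order of the introns by SE moved accordingly. In *upf1Δ*, *DBP2* had rank 76 from the highest and *YRA1* rank 180 of 272, around a median SE of 94.6%. In *prp18Δupf1Δ*, where the median was 81.9%, *DBP2* had rank 8 and *YRA1* rank 134. Outside the RPGs *DBP2* went from rank 30 to rank 2 of 168, and *YRA1* from 93 to 56.

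**Figure D2:**
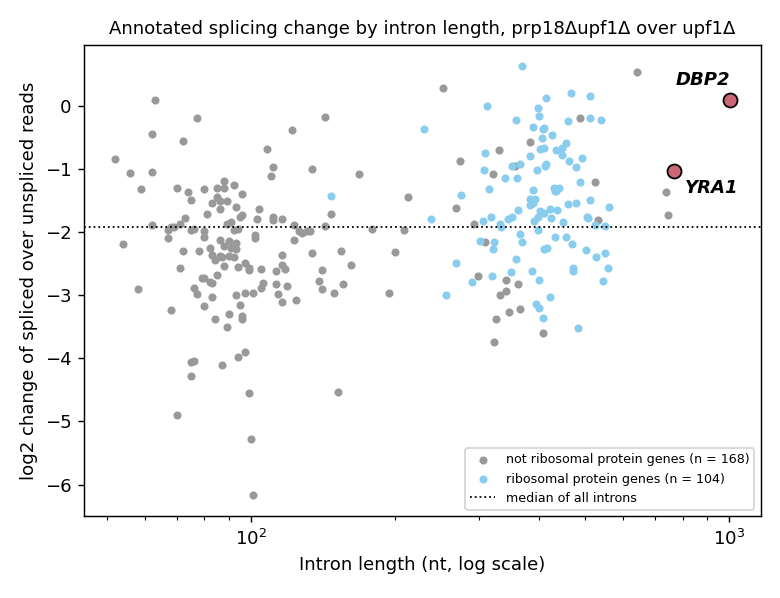
Log2 change of the ratio of spliced to unspliced reads (y axis, *prp18Δupf1Δ* over *upf1Δ*) against intron length in nt (x axis, log scale) for the 272 tested introns, with RPGs in blue, other genes in grey and the median change of -1.92 as a dotted line. *DBP2* (0.090) and *YRA1* (-1.04), in red at the right edge, both lie above that line.

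*YRA1* and *DBP2* were set against each other within each library, as the log2 ratio of spliced to unspliced reads (summed over both unspliced sites) of *YRA1* minus that of *DBP2*. This difference was -1.71, -2.42 and -1.81 in the *upf1Δ* replicates and -2.54, -3.48 and -3.31 in the *prp18Δupf1Δ* replicates. *YRA1* was the less spliced of the pair in every library, and each *prp18Δupf1Δ* library lay below each *upf1Δ* library, the closest being *prp18Δupf1Δ* replicate 1 and *upf1Δ* replicate 2. The mean moved by -1.13, with an exact permutation p of 0.1 (two-sided, 20 assignments, n = 3 against 3), the smallest p that this design can give. Within replicate numbers, the log2 ratio of *YRA1* changed by -0.68, -1.03 and -1.40, and that of *DBP2* by 0.14, 0.017 and 0.099.

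Transcripts of *YRA1* also became less abundant. Abundance here is spliced plus unspliced reads at the intron per 1000000 reads at all tested introns after TMM scaling (CPM), so it is relative to the other intron-containing transcripts. *YRA1* had 1920, 1468 and 1437 CPM in *upf1Δ* and 1241, 906 and 897 in *prp18Δupf1Δ*, again without overlap. The log2 change was -0.66 ± 0.187 (edgeR, adjusted p = 0.0385). Of the 272 introns, 11.0% were called lower and 16.2% higher, and 18.4% had every *prp18Δupf1Δ* library below every *upf1Δ* library. The change was of like size within each replicate number, -0.63, -0.70 and -0.68. The call was lost without *upf1Δ* replicate 2 or 3 (adjusted p = 0.0835 and 0.0619, edgeR) and without *prp18Δupf1Δ* replicate 2 or 3 (0.101 and 0.0948).

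*DBP2* had 711, 1126 and 1236 CPM in *upf1Δ* and 397, 1050 and 990 in *prp18Δupf1Δ*. Replicate 1 held the lowest value of each strain, and the strains overlapped. The change was -0.34 ± 0.381 (edgeR, adjusted p = 0.555) and was not called, and it ran from -0.55 (without *prp18Δupf1Δ* replicate 2) to -0.0036 (without *prp18Δupf1Δ* replicate 1) when 1 library was left out. Within replicate numbers it was -0.84, -0.10 and -0.32. With the replicate number as a block, a fall of *DBP2* transcripts was called (-0.41, edgeR, adjusted p = 0.0177), as it was without replicate 1 of both strains (-0.21, adjusted p = 0.0160). In those fits the number of introns called lower rose from 30 to 77 and 93.

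The fall of *YRA1* was in its spliced reads. Spliced *YRA1* reads came to 1727, 1315 and 1320 CPM in *upf1Δ* and 1053, 731 and 727 in *prp18Δupf1Δ*, with no overlap, as in 37.5% of introns. This was a log2 change of -0.80 ± 0.202 (edgeR, adjusted p = 0.0235), and 25.7% of introns were called lower. That call was lost without *upf1Δ* replicate 2 (adjusted p = 0.0505) and without *prp18Δupf1Δ* replicate 2 or 3 (0.0694 and 0.0614).

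Unspliced *YRA1* reads, by contrast, were 193, 154 and 117 CPM in *upf1Δ* and 188, 175 and 171 in *prp18Δupf1Δ*. The strains overlapped, and the log2 change of 0.21 ± 0.267 was not called (edgeR, adjusted p = 0.486). Leaving out 1 library moved it between 0.085 and 0.38, also without a call. Without replicate 1 of both strains a rise was called (0.36, edgeR, adjusted p = 0.0187). The direction rests on the scaling: with scaling factors from introns outside the RPGs the change of unspliced *YRA1* reads was -0.038, and this scaling also moved the median of all introns, from 1.72 to 1.45.

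For *DBP2*, spliced reads were 688, 1102 and 1206 CPM in *upf1Δ* and 385, 1027 and 967 in *prp18Δupf1Δ* (change -0.33 ± 0.387, edgeR, adjusted p = 0.544). With the replicate block this fall was called (-0.41, adjusted p = 0.00949), and so it was without replicate 1 of both strains (-0.21, adjusted p = 0.0333). Unspliced reads were 23.4, 24.0 and 30.6 CPM in *upf1Δ* and 11.9, 22.1 and 22.9 in *prp18Δupf1Δ*. Each *prp18Δupf1Δ* library lay below each *upf1Δ* library, as in 1.1% of introns, but the change of -0.45 ± 0.419 was not called (edgeR, adjusted p = 0.346). Leaving out 1 library moved it between -0.59 and -0.18.

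Unspliced reads rose at most other introns. The test called 79.0% of introns higher and 0 lower, and the median log2 change was 1.72 (quartiles 1.04 and 2.27). By this change *DBP2* was last of the 272 introns and *YRA1* ranked 253. By the change of spliced reads they ranked 165 (*DBP2*) and 218 (*YRA1*), and by that of total reads 214 and 252.

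**Figure D3:**
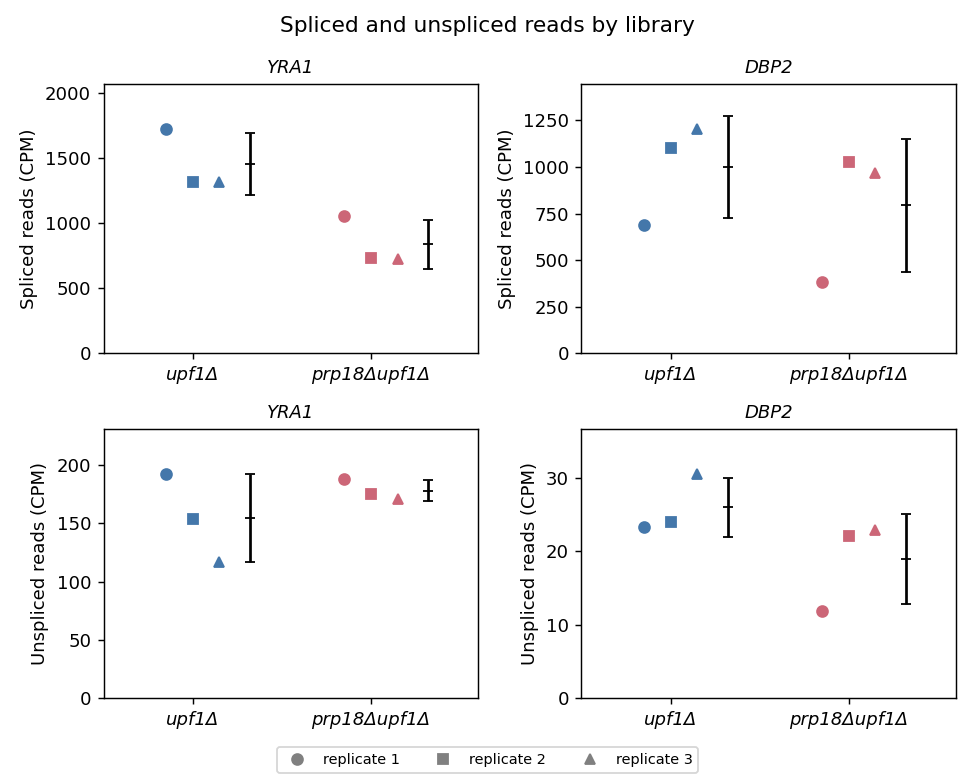
Spliced (top) and unspliced (bottom) reads per 1000000 reads at tested introns (CPM, y axes, from 0) for *YRA1* and *DBP2* in each library, by strain (x axis). Points are libraries, shaped by replicate number, and bars are the mean ± SD of 3 libraries. Spliced *YRA1* reads do not overlap between the strains, and replicate 1 of each strain is the highest for spliced *YRA1* and the lowest for spliced *DBP2*.

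**Figure D4:**
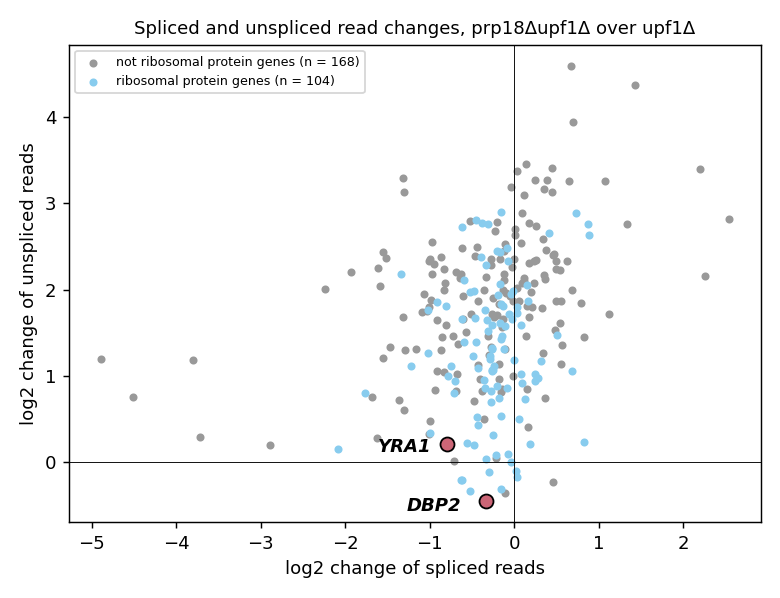
Log2 change of unspliced reads (y axis) against log2 change of spliced reads (x axis), *prp18Δupf1Δ* over *upf1Δ*, for the 272 tested introns, with RPGs in blue and other genes in grey. *YRA1* (-0.80, 0.21) and *DBP2* (-0.33, -0.45), in red, lie near the bottom, where the median unspliced change is 1.72.

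No alternative junction of either intron passed all filters. A junction was kept when it had perfect overhangs of 10 bp upstream and 40 bp downstream, no mismatch within 10 bp in at least 50% of its reads, and at least 6 gapped reads over the 6 libraries. None of the 15 alternative junctions listed for *YRA1* and none of the 3 listed for *DBP2* met all of these, so none was tested. Of the tested introns, 85.3% had at least 1 junction that did, and of the 30 introns outside the RPGs with at least the annotated reads of *DBP2*, 90.0%. The 3 introns of those 30 without one were *YRA1* (9249 annotated reads), *DBP2* (7103) and 1 intron of *SUS1* (8297), a gene of the SAGA and TREX-2 complexes. *SUS1* is in a fixed gene list used below, but it is named here because of these values. No test of this difference was made.

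Of the *YRA1* junctions, 6 passed the filters on overhangs and mismatches but had 1 to 4 gapped reads each. Together they had 2, 1 and 3 reads in replicates 1 to 3 of *upf1Δ*, against 2, 1 and 2 in those of *prp18Δupf1Δ*. This was 0.0938% of the spliced reads in *upf1Δ* (Wilson interval 0.0430 to 0.204%) and 0.175% in *prp18Δupf1Δ* (0.0747 to 0.408%), so no difference was detectable at this depth. One of them used the TAG that ends 22 bases into exon 2, with 1 read in *upf1Δ* and 2 in *prp18Δupf1Δ*, and it shifts the reading frame. Others joined the annotated 5′SS to an AAG at 59 bases into exon 2 or to a TAT 5 bases before the annotated 3′SS, with 1 read each. A further one joined a site 47 bases into the intron to the annotated 3′SS, with 1 read. The last 2 changed both sites by 4 bases or fewer.

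The other 9 *YRA1* junctions did not pass these filters. Most of their reads came from a junction displaced by 4 bases at the 5′SS and 3 at the 3′SS. It had 21, 19 and 8 reads in *upf1Δ* and 18, 5 and 6 in *prp18Δupf1Δ*. Of its 88 gapped reads, 0 were free of mismatches near the junction, and its longest perfect upstream overhang was 2 bases. All of its reads were placed by BBMap alone. Without the filters, 3 *YRA1* junctions and 1 *DBP2* junction could be tested, each displaced by 5 bases or fewer at both ends, and none was called (edgeR, adjusted p = 0.292, 0.760 and 0.591 for *YRA1* and 0.953 for *DBP2*).

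The 3 listed *DBP2* junctions had 8 reads in *upf1Δ* and 3 in *prp18Δupf1Δ*, were placed by BBMap alone, and were displaced by 2 or 4 bases at both ends. With 0 reads that passed, counting error allows alternative *DBP2* junctions up to 0.0663% of the annotated reads in *upf1Δ* and 0.117% in *prp18Δupf1Δ*. This limit holds only for junctions that the aligners could place and the filters could keep. The aligners differed between the genes. Both aligners placed 84.4% of the gapped reads of the annotated *YRA1* junction, against 0.0644% for *DBP2*, where STAR alone placed 97.9%. Such a low share was not particular to *DBP2*, since 84 of 272 introns had under 1% placed by both. Of the 46 of those with at least the annotated reads of *DBP2*, 91.3% had an alternative junction that passed, against 97.6% of the 84 introns of that depth with a higher share. The part of the aligners in the absence of *DBP2* junctions was not tested.

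The introns nearest to *YRA1* in splicing, by the Euclidean distance of the log2 ratio of spliced to unspliced reads over the 6 libraries, were all in RPGs. They were *RPS8B* (distance 0.26), *RPS27A* (0.47) and *RPL36A* (0.80). The SE of *RPS8B* went from 90.7% ± 1.08 to 81.4% ± 3.34 (SD, n = 3 each), much as that of *YRA1*, but its unspliced reads rose (log2 change 1.19, edgeR, adjusted p = 0.00923), while no change of unspliced *YRA1* reads was called. The introns nearest to *DBP2* were farther away: *GLC7* (1.86), *RPL37B* (1.90) and *SAC6* (2.09), which encodes the actin bundler fimbrin. *GLC7*, the catalytic subunit of protein phosphatase type 1, had an SE of 97.9% ± 0.407 in *upf1Δ* and 95.3% ± 0.540 in *prp18Δupf1Δ* (SD, n = 3).

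Among other long introns, those of at least 500 bp, 21 of 22 listed were tested. Of the 19 beside *YRA1* and *DBP2*, 13 were called lower and 0 higher, and their median change was -1.77, against 81.6% called lower and a median of -1.92 over all introns. Outside the RPGs there were 5. The introns of *NOG2*, a GTPase of 60S ribosome assembly (change -1.81, edgeR, adjusted p = 0.00260), and of *GLC7* (-1.22, adjusted p = 0.00309) were called lower. Those of *BMH2*, a 14-3-3 protein (-1.74, adjusted p = 0.0669), *GCR1*, an activator of glycolytic genes (-1.37, adjusted p = 0.0957), and *MPT5*, an RNA-binding Puf protein (0.54, adjusted p = 0.525), were not. *DBP2* was thus not the only long intron without a call. The estimates for *BMH2*, *GCR1* and *MPT5* were less precise, however (SE of the estimate 0.783, 0.696 and 0.753, against 0.286 for *DBP2*). Among the long introns of RPGs, *RPL42A* (0.15 ± 0.270, edgeR, adjusted p = 0.630) and *RPL28* (-0.195 ± 0.270, adjusted p = 0.522) were as flat and as precise as *DBP2*. Their unspliced reads did not rise either (log2 changes -0.31 and -0.12). *RPS13* was also not called, with a less precise estimate (-0.24 ± 0.757). These RPGs are named here because of these values.

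In 8 tested introns of 7 genes for mRNA export, mRNP assembly and decay, 7 were called lower in splicing and 0 higher (median -2.16), and unspliced reads rose in 7. Over all introns 81.6% were called lower (median -1.92) and unspliced reads rose in 79.0%, so these counts lie near the general shares. The largest falls were those of *LSM7*, a subunit of the Lsm ring (-3.33, edgeR, adjusted p = 0.000247), and *HRB1*, an SR-like export protein (-2.76, adjusted p = 0.000200). The smallest changes were those of *GLC7*, given above, and of the intron of *SUS1* at chrII:462430-462499 (-1.30, adjusted p = 0.0769), which was not called. *YRA1* changed less than each of these 8 and *DBP2* less still, without a test of that order.

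Of 3 other genes whose proteins act on their own splicing, *RPL22B* was called lower (-2.28, edgeR, adjusted p = 0.00124), with an SE of 31.8% ± 7.98 in *upf1Δ* and 8.94% ± 3.21 in *prp18Δupf1Δ* (SD, n = 3 each). *RPL30* (-0.38, adjusted p = 0.414) and *RPS14B* (-0.38, adjusted p = 0.332) were not called. In none of the 3 did unspliced reads pass the test (log2 changes 0.040 for *RPL30*, 0.15 for *RPL22B* and -0.21 for *RPS14B*). Over all introns, 81.6% were called lower in splicing and unspliced reads rose in 79.0%. *RPL30*, *RPL22B* and *RPS14B* are all RPGs. Whether their values go with the regulation of their own splicing or with the RPG class was not tested.

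The features of the *YRA1* intron were also met in other introns. Of the 10 other introns with the branch sequence GACTAAC, 9 were called lower, with a median change of -2.34. Of the 46 other introns with 20 nt or less between branch and 3′SS, 36 were called lower, with a median of -1.91. Both counts lie near the 81.6% called lower over all introns, whose median was -1.92.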

How the data were processed

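Stranded mRNA libraries were made with the TruSeq kit. The authors trimmed reads with cutadapt 1.18, aligned them to R64 with BBMap and STAR 2.7.0d, kept the best alignment of each read pair, and deposited 1 table per library, with replicates not pooled. Junction reads here are the deposited unique junction counts, without scaling. The filters on read number and mismatches used gapped reads, which are named as such and were more numerous. The annotated *YRA1* junction had 9249 unique and 11872 gapped reads, and that of *DBP2* had 7103 and 9320. For unspliced reads the authors deposited an estimated count per intron, the mean of reads that cross its 5′SS and its 3′SS unspliced. The deposited SE is a fraction, annotated over annotated plus unspliced reads, and it followed from the counts in 12588 of 12588 entries compared. For alternative junctions, SE and FAnS (reads over annotated reads) were deposited as a ratio, and counts were used in their place. The tables list junctions of 20 to 2000 bp that start near an annotated 5′SS, and the quality filters were applied here.

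An intron was tested if it had 10 reads or more over the 6 libraries and at least 1 in each. Annotated splicing was tested by edgeR 4.0.16 on spliced reads and the sum of unspliced reads at both sites. Abundance was tested on total, spliced and rounded unspliced reads with TMM factors of the total. The alternatives were DESeq2 1.42.0, other scalings and filters, leaving out libraries, and the replicate number as a block. The tables hold no separate 5′SS and 3′SS unspliced reads, so the planned comparison of the ends of the intron and the alternatives with one end alone were not run. Same-numbered libraries deviated together (correlations 0.58, 0.30 and 0.38 for the splicing ratio, 0.82, 0.68 and 0.74 for abundance). Libraries numbered 2 and 3 correlated about as strongly with each other across the strains (0.37 and 0.34 for the splicing ratio, 0.72 and 0.62 for abundance). The correlations thus set replicate 1 apart but do not show that each number pairs 1 library with 1 other. The main tests used no block, and the block was an alternative only. Genes were named by a rule that takes all junctions of both genes, the 3 nearest introns of each, and fixed gene lists, of which *CBC2* was not found in the tables. The members and lists were chosen with earlier results of these data known. On simulated counts for the 272 introns the splicing test found 52% of the introns changed 2-fold and 96% of those changed 4-fold, and called 1 of 72 left as they were. The abundance test found 92% and 100%, and called 5 of 72. Each simulated library was drawn independently, without the shared deviation of same-numbered libraries. The rates are over all introns, so they do not give the power at the few unspliced reads of *DBP2*.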

Additional observations from a re-analysis of the deposited data

How the results depend on the processing

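Annotated splicing of *YRA1* stayed lower and called, and that of *DBP2* uncalled, under DESeq2, the rounded mean of unspliced reads, other filters, the replicate block and each omission of a library. Leaving out 1 library gave -0.080 to 0.23 for *DBP2*, with the negative values without *upf1Δ* replicate 1 (-0.080) and *prp18Δupf1Δ* replicate 2 (-0.022). Against the median intron, leaving out 1 library gave 0.69 to 1.06 for *YRA1*. For *YRA1* it gave -0.83 to -0.53 for total and -0.99 to -0.67 for spliced reads, and for spliced *DBP2* reads -0.55 to 0.00079. With the replicate block, *DBP2* was called lower in total (-0.41) and spliced reads (-0.41), and the block changed no other call for the 2 genes. Without replicate 1 of both strains these were -0.21 and -0.21, also called, and a rise of unspliced *YRA1* reads was called (0.36). Scaling by introns outside the RPGs turned unspliced *YRA1* reads to -0.038, and scaling by the unspliced reads themselves gave called falls of -1.35 (*YRA1*) and -2.07 (*DBP2*), since it sets the general rise near 0 (median 0.13 in place of 1.72). The difference between *YRA1* and *DBP2* was -1.41 to -0.94 over the omissions. Without filters, 3 alternative junctions of *YRA1* and 1 of *DBP2* could be tested. With none testable otherwise, the other alternatives for junctions could not be run for these genes, and those that need 1 end of the intron alone were not run.

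Counts over all 272 introns moved more than the values of the 2 genes. With the block, 77 introns were called lower and 82 higher in total reads, in place of 30 and 44, and 79 and 76 relative to the median intron, in place of 27 and 40. Leaving out 1 library gave 10 to 42 lower and 26 to 59 higher in total reads, and 7 to 44 lower and 10 to 55 higher relative to the median intron. Scaling by introns outside the RPGs gave 52 lower and 25 higher in total reads. Spliced reads had 128 lower with the block, in place of 70, 106 with that scaling and 41 when scaled by the spliced reads themselves. Few unspliced reads limit *DBP2*, with at most 49 in a library.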
